A study of Mus musculus with 4 samples.

Results

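Axon guidance ligands and receptors are secreted and membrane proteins that steer migrating cells and growing processes by attraction or repulsion. Semaphorins act through plexins, with neuropilins as coreceptors of the secreted class 3 members. Slits act through Robo receptors, netrins through DCC, neogenin and UNC5 receptors, and ephrins through Eph receptor tyrosine kinases on neighbouring cells. Outside the nervous system these families act in vessel growth, in epithelial branching and in the sorting of cells, and several have been studied in the developing lung. The set described here holds 58 genes of 10 subfamilies out of 21779 protein-coding genes. They were taken by name from these families, without covering every family member, and the set was proposed with results of these data known. It holds 20 semaphorin, 9 plexin, 2 neuropilin, 3 Slit, 4 Robo, 2 netrin, 4 UNC5, 4 ephrin and 8 Eph receptor genes, with Dcc and Neo1.

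Occupancy by HOXA5, a homeodomain transcription factor of the HOXA cluster, was measured by chromatin immunoprecipitation and sequencing. The tissue was whole lung of E15.5 mouse embryos (E for embryonic day) with the genotype Hoxa5FLAG/FLAG, in which the endogenous gene carries a FLAG epitope on both alleles, and the FLAG antibody was used. There were 2 immunoprecipitates and 2 inputs. The inputs were not analysed here, nor was any untagged lung, so peaks that an antibody gives without HOXA5 cannot be told apart from binding. The titles carry wt beside the tagged genotype, and the labels were followed. Nothing in the labels ties the 2 replicates to different litters or pools of lungs, so part of their agreement may be technical. Whole lung mixes mesenchyme, epithelium, vessels and nerves. A site bound strongly in few cells and a site bound weakly in many cannot be told apart.

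The replicate 1 list held 4289 peaks and the replicate 2 list 2832, and the depth of the libraries is unknown. Each peak carries the fold enrichment and −log10 q that the authors' peak caller gave its summit, and these describe a peak only within its own list. A peak was given to each protein-coding gene whose annotated span held its summit, and otherwise to the protein-coding gene with the nearest end if that lay within 100 kb. A gene described as having no peak was given none, though a peak given to another gene may lie within 100 kb of it. A shared peak is a replicate 1 peak that overlaps a replicate 2 peak by at least 1 bp. All positions are in mm10. Exons and introns were not told apart, so "inside" means within the annotated span. No test was made over the gene set because of how it was proposed. Counts are set beside the same count over all protein-coding genes.

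Of the 58 genes, 20 had a peak in replicate 1 (34.5%, 95% Wilson interval 23.6 to 47.3), where 10.4% of all protein-coding genes did. In replicate 2 the number was 19 (32.8%, 22.1 to 45.6), against 7.57%. A shared peak was present at 17 (29.3%, 19.2 to 42.0), against 5.96%. Those intervals treat genes as independent and cover counting error only. Of the other 41 genes, 5 had a peak in 1 list alone and 36 had none in either list. The 29 ligand genes and the 29 receptor genes had a shared peak in 7 and 10 cases. Shared peaks numbered 24 in all, 8 at ligand genes and 16 at receptor genes. Of the 16, Robo2 had 4 and Unc5c had 3, and the split was not set against the bases of the genes.

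**Figure D1:**
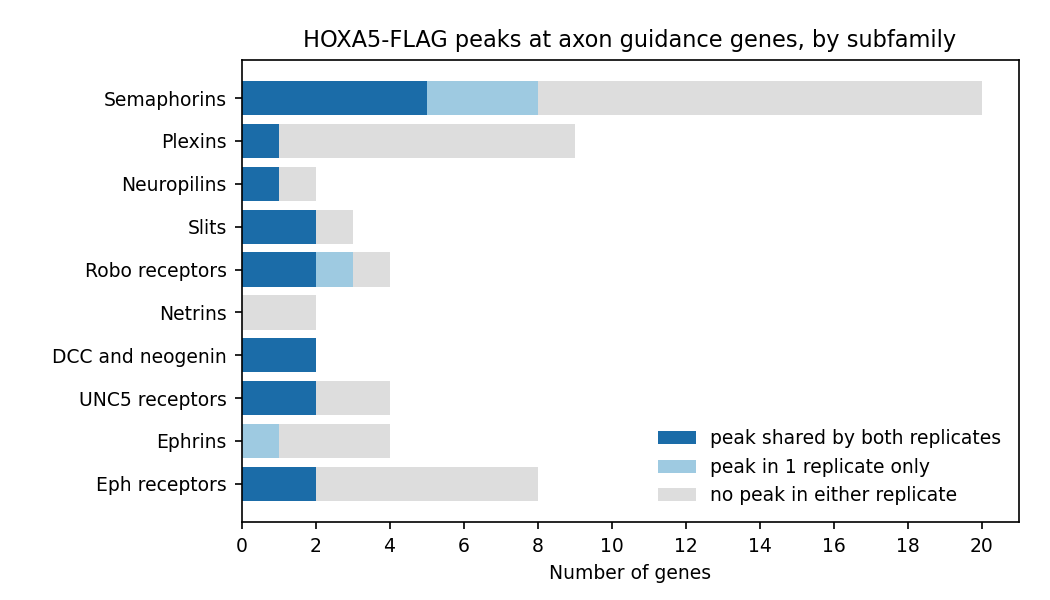
Number of genes (x axis) in each of the 10 subfamilies (y axis), split by whether a HOXA5-FLAG peak was shared by both replicates, was present in 1 replicate only, or was in neither list. Semaphorins had shared peaks at 5 of 20 genes, DCC and neogenin at both, and netrins and ephrins at none. Over all protein-coding genes 5.96% had one.

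The secreted class 3 semaphorins are soluble ligands, and in cultured fetal lung members of this class have been found to affect branching. Of 7 class 3 genes, Sema3a and Sema3c had a shared peak, where 5.96% of all protein-coding genes did. Sema3e had a peak in replicate 1 only and Sema3d in replicate 2 only. Sema3b, Sema3f and Sema3g had no peak. The 4 genes with a peak lie in a stretch of 5.35 Mb on chromosome 5 that also holds 18 other protein-coding genes, and the 3 without lie elsewhere. The 4 span 155 to 479 kb and the 3 only 11.6 to 29.0 kb, so location and length cannot be told apart. Sema3a, a repellent of axons and vessels, spans 479 kb (chr5:13124822-13603485). Its shared peak lay inside the gene, 112 kb from the annotated 5′ end (chr5:13236429-13236876), and its enrichment was 6.02-fold in replicate 1 and 4.60-fold in replicate 2. The 2 summits were 19 bp apart. The RefSeq start listed for Sema3a lay 160 kb downstream of this peak. Replicate 1 had 4 more peaks at Sema3a without a partner, 3 of them inside the gene, at 5.83-, 4.19- and 2.83-fold, and 1 at 40.0 kb before it with 3.15-fold. The summit of the 4.19-fold peak was 3.74 kb from the listed start. Replicate 2 had another without a partner at 2.35-fold. Sema3a thus had 5 peaks in replicate 1 and 2 in replicate 2, with a single position in common.

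Sema3c, needed for septation of the cardiac outflow tract, had its shared peak 18.5 kb upstream of the gene (chr5:17556148-17556465), at 3.38-fold in replicate 1 and 4.03-fold in replicate 2. A replicate 2 peak without a partner lay inside it at 3.07-fold. The Sema3e peak (chr5:14162612-14162903, inside the gene) had 4.64-fold enrichment and the Sema3d peak (chr5:12481222-12481555, inside) 2.77-fold. SEMA3E is the ligand of plexin D1 in vessels, and Plxnd1 had no peak. A site at chr5:12233562-12233997 was found in both lists with Sema3d as the nearest coding gene, but at 149 kb it lay outside the 100 kb limit.

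Among transmembrane semaphorins, 1 of 2 class 5 genes and 2 of 4 class 6 genes had a shared peak, where 5.96% of all protein-coding genes did. Sema5a and Sema6d span 452 and 578 kb, and 35.1% of all protein-coding genes over 200 kb had one. Sema6a spans 126 kb, and 11.0% of those from 50 to 200 kb did. Sema5a, a ligand with thrombospondin repeats that can attract or repel, had 2 shared peaks. The higher lay 20.6 kb inside the gene from its 5′ end (chr15:32265282-32265652), at 5.45-fold in replicate 1 and 5.54-fold in replicate 2, with summits 70 bp apart. The other lay 85.6 kb beyond the 3′ end (chr15:32781712-32782094) at 4.29- and 3.09-fold, within the transcribed pseudogene Gm32618. Its paralogue Sema5b had none. Sema6d, a ligand of the plexin A receptors, held a shared peak 212 kb from its 5′ end (chr2:124301987-124302266; 5.23- and 3.89-fold, summits 3 bp apart). It also held a peak without a partner in each list, at 2.55-fold in replicate 1 and 2.42-fold in replicate 2. Sema6a had a shared peak 71.9 kb outside the gene (chr18:47443046-47443375) at 4.52- and 3.66-fold, and the long noncoding RNA gene 9130209A04Rik was nearer, at 9.53 kb. Sema6b, Sema6c and the membrane-anchored Sema7a had no peak. A shared peak lay 28.5 kb from a start of Sema6b but was given to another gene.

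Among 6 class 4 genes, which encode transmembrane semaphorins, Sema4d alone had a peak. It was a replicate 1 peak 22.9 kb upstream at 2.10-fold, with a −log10 q of 2.11, close to the lowest in that list (2.01). Over all protein-coding genes 10.4% had a replicate 1 peak.

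Plexins and neuropilins are the receptors of semaphorins. Of 9 plexin genes, Plxnc1, which encodes the receptor of SEMA7A, had a shared peak (11.1%, 1.99 to 43.5, Wilson, where 5.96% of all protein-coding genes did), and the other 8 had no peak. The Plxnc1 peak lay 99.2 kb upstream of the gene (chr10:95044071-95044448), barely inside the limit, at 3.75-fold in replicate 1 and 2.66-fold in replicate 2. The next coding gene, Cradd, was 131 kb away. None of the 4 plexin A or 3 plexin B genes had a peak, although Plxna4 spans 444 kb. Nrp2, the coreceptor of class 3 semaphorins that is also known from lymphatic vessels, had among the highest peaks of the set. Its shared peak lay 20.8 kb upstream of the gene (chr1:62682367-62682954), at 10.2-fold in replicate 1 and 6.13-fold in replicate 2. The summits were 1 bp apart, and the peak was in the top 5.49% of replicate 1 and the top 10.9% of replicate 2 by −log10 q. Nrp1, the other neuropilin gene, had no peak in either list.

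Slit genes encode large secreted proteins, and Robo genes their immunoglobulin-type receptors. Slit2 and Slit3 had a shared peak each, and Slit1 had none. The spans of Slit2 and Slit3 are 326 and 587 kb, and 35.1% of all protein-coding genes over 200 kb had a shared peak. The Slit3 peak lay inside the gene, 75.5 kb from its 5′ end (chr11:35196736-35197269), at 7.14-fold in replicate 1 and 5.52-fold in replicate 2, with summits 31 bp apart. Another peak of Slit3 was in replicate 2 only. Its summit was 3.74 kb from the annotated start, at 3.61-fold. The Slit2 peak lay 7.68 kb beyond the 3′ end (chr5:48315237-48315759), at 3.71- and 3.36-fold. Replicate 1 had 2 more at Slit2, at 3.06- and 3.59-fold, that had no partner.

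Robo1 and Robo2 are neighbours on chromosome 16, with no other protein-coding gene in the 3.42 Mb from the start of the former to the end of the latter. That stretch held 8 peaks in replicate 1 and 6 in replicate 2, which made 6 shared peaks. Robo2 had 4 of them, more than any other gene of the set, and Robo1 had 1. The sixth lay in the gap between the 2 genes (chr16:73652886-73653371; 11.0-fold in replicate 1 and 5.56-fold in replicate 2). At 239 kb from Robo2 and 606 kb from Robo1 it was outside the limit and was given to neither. Of all protein-coding genes, 49 had 3 or more shared peaks. Of those over 200 kb, as Robo1 and Robo2 are, 35.1% had at least 1. The highest of the Robo2 peaks lay in the same gap, of 844 kb, 95.2 kb beyond the 3′ end of Robo2 and 749 kb from Robo1 (chr16:73796478-73797387). It reached 13.7-fold in replicate 1 and 8.41-fold in replicate 2, the highest values in each list at any of the 58 genes, with summits 4 bp apart. In −log10 q it stood in the top 3.29% of replicate 1 and the top 4.80% of replicate 2. The 3 shared peaks inside Robo2 were lower. Those at chr16:73964326-73964771 and chr16:74055228-74055548 had 3.08- and 3.14-fold enrichment in replicate 1, and 3.97- and 2.36-fold in replicate 2. The peak at chr16:74597867-74598614 had 2.76- and 3.09-fold, and its summits were 323 bp apart. Ranked by −log10 q, these 3 stood 78.1%, 80.1% and 80.3% of the way down the replicate 1 list, and 39.7%, 95% and 75.2% of the way down the replicate 2 list.

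Robo1 held a shared peak 386 kb from its 5′ end (chr16:72412926-72413266) at 6.75-fold in replicate 1 and 4.41-fold in replicate 2, with summits 2 bp apart, and a replicate 1 peak without a partner at 4.90-fold. The RefSeq start listed for Robo1 lay 250 kb downstream of the shared peak. Robo3 had a replicate 2 peak alone, 20.7 kb upstream at 3.61-fold. Robo4, the endothelial member of the family, had none.

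Netrins are secreted proteins related to laminins. Neither Ntn1 nor Ntn4, which span 177 and 105 kb, had a peak in either list. Of their 6 receptor genes, which span 60.9 to 1098 kb, 4 had a shared peak. Among all protein-coding genes, 11.0% of those from 50 to 200 kb and 35.1% of those over 200 kb had one. Unc5a, which encodes a repulsive netrin receptor, had the second highest replicate 1 fold of the set. Its peak lay inside the gene, 25.9 kb from the annotated 5′ end (chr13:54970876-54971231), at 10.8-fold in replicate 1 and 8.38-fold in replicate 2, with summits 4 bp apart. It was in the top 6.13% and the top 5.42% of the lists by −log10 q. Unc5c had 3 peaks in each list, and all 3 were shared. They lay at 10.1, 33.2 and 332 kb from the 5′ end of a gene of 369 kb. The middle one (chr3:141498270-141499007) was highest, at 6.57- and 5.82-fold with summits 2 bp apart. The first (chr3:141475523-141476181) had 3.59- and 3.62-fold and the last (chr3:141797342-141798030) 5.27- and 3.44-fold. Unc5b had no peak within the limit, and a replicate 1 peak without a partner lay 106 kb away. Unc5d, of 573 kb, had none.

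Dcc, the attractive netrin receptor gene of 1098 kb, held a shared peak near its middle (chr18:71840835-71841384) at 3.06- and 3.00-fold. The summits were 377 bp apart, the widest gap of the 24. Neo1, which encodes a receptor of netrins and of RGM proteins, had a shared peak 93.3 kb upstream (chr9:59129827-59130146) at 3.95-fold in each list. The pseudogene Gm7589 was nearer to it, at 15.7 kb.

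Ephrins are membrane-bound ligands. Over all protein-coding genes 10.4% had a replicate 1 peak. Of 4 ephrin genes, Efna5 had a replicate 1 peak alone, 40.5 kb beyond its 3′ end (chr17:62562335-62562724) at 4.34-fold. A higher site found in both lists (chr17:62461225-62461667; 7.25- and 4.11-fold) had Efna5 as its nearest coding gene but lay 142 kb away, outside the limit. Of the 8 Eph receptor genes, Epha3 and Epha7 had shared peaks, and no peak was given to Epha4, Epha5 or the 4 EphB genes. Epha3 spans over 200 kb and Epha7 from 50 to 200 kb. In these classes 35.1% and 11.0% of all protein-coding genes had a shared peak. A shared peak lay 88.7 kb from the start of Ephb2, but it was given to Epha8, which was nearer and is not in the set. Epha7 had its peak 31.1 kb beyond the 3′ end (chr4:28998393-28998720), at 5.61-fold in replicate 1 and 3.82-fold in replicate 2. A further site found in both lists lay 125 kb from Epha7. Epha3 had 2 shared peaks. That inside the gene, 30.5 kb from its 5′ end (chr16:63833261-63833909), had 3.79- and 2.37-fold enrichment and lay within the long noncoding RNA gene Gm41466. The other, 81.9 kb beyond the 3′ end (chr16:63460652-63462779), had 2.83- and 3.10-fold and was long, at 2128 bp in replicate 1 and 2552 bp in replicate 2, where the median lengths of the whole lists were 414 and 436.5 bp. The highest replicate 1 peak at Epha3, at 6.22-fold inside the gene (chr16:63569732-63570151), had no partner in replicate 2.

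**Figure D2:**
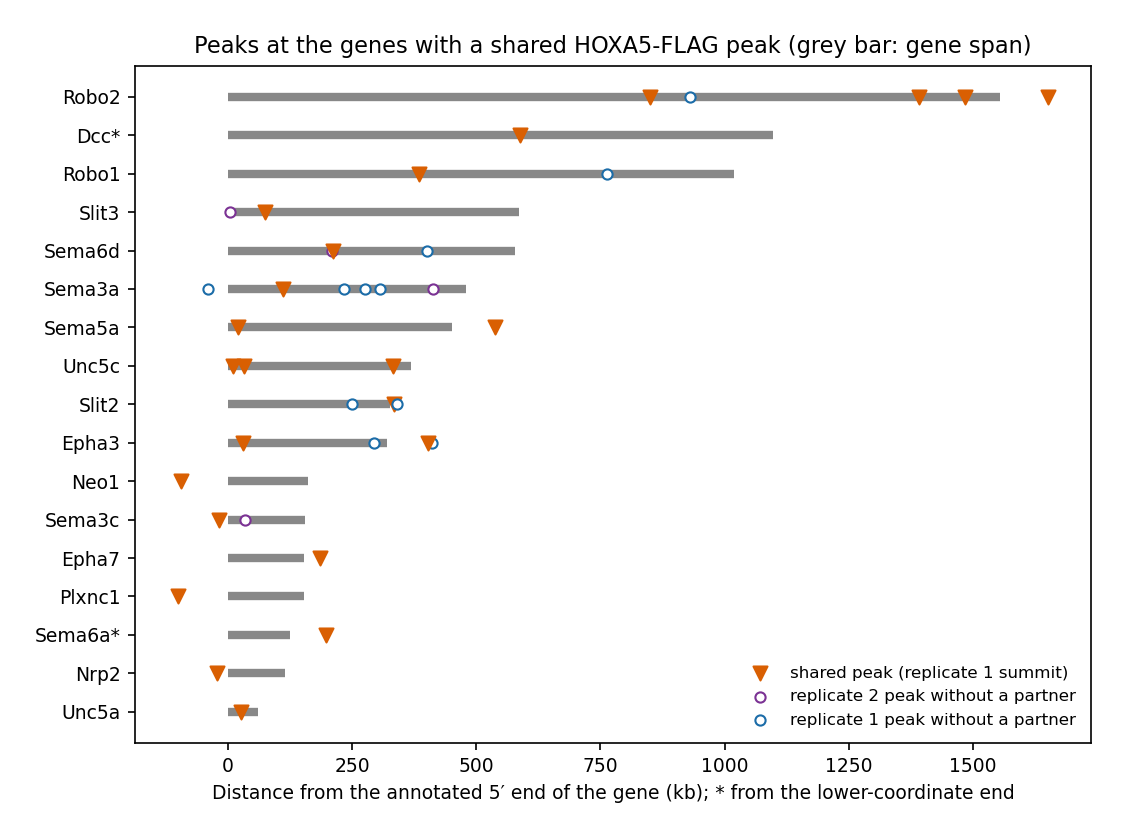
Summits of HOXA5-FLAG peaks (x axis, kb from the annotated 5′ end) at the 17 genes with a shared peak (y axis, longest gene at the top), with the gene span as a grey bar. For Dcc and Sema6a the strand was not available and distances run from the lower-coordinate end. Triangles are shared peaks, 14 inside a span and 10 outside, and circles are peaks found in 1 replicate.

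Among the 24 shared peaks, 14 had the summit inside a gene of the set (58.3%, 38.8 to 75.5, Wilson). They fell in 10 of the 58 genes, where 3.25% of all protein-coding genes held a shared summit. Of the 1575 shared peaks given to any protein-coding gene, 54.2% were inside one. The 10 outside lay 7.68 to 99.2 kb from the gene, with a median of 76.9 kb, and 5 of them were more than 80 kb away (at Epha3, Sema5a, Neo1, Robo2 and Plxnc1). Where the strand was known, positions of the 13 peaks inside the genes were spread from 2.74% to 95.3% of the span, counted from the 5′ end. Of all 22 shared peaks with a known strand, inside or outside, 15 lay downstream of the nearest RefSeq start of the gene itself. The 15 include the peaks beyond a 3′ end.

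None of those 22 was within 10 kb of a start of its own gene. The nearest was the 10.1 kb peak of Unc5c, and the median distance was 173 kb. Counting any gene's listed start, 1 of the 24 was within 10 kb (4.17%, 0.739 to 20.2, Wilson), beside 302 of 1575 (19.2%) over all shared peaks given to a gene. The 17 genes with these peaks had a median span of 326 kb, beside 17.2 kb over all protein-coding genes. The part of span in the distance to starts was not tested. RefSeq promoter windows, from 250 bases before to 50 after a start, were found for 49 of the 58 genes, 64 windows in all, in GRCm38.p6, the assembly behind mm10. No peak of either list overlapped any of the 64. Over all 32851 windows, 0.384% held a replicate 1 peak and 0.167% a replicate 2 peak.

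The windows were searched on both strands for 3 words. TAATTA is a core that many homeodomain proteins bind, and TGATTGAT and TGATNNAT are cores bound by HOX with PBX, where every TGATTGAT is also a TGATNNAT. TAATTA was found in 3 of the 64 (4.69%), where 5.29% of all windows held it, TGATTGAT in none (0.746% of all), and TGATNNAT in 1 (1.56%, against 8.85% of all). The sequences with a match are shown since they are the promoter stretches of the set that hold these letters. Each runs 5′ to 3′ on the strand of the gene, with the match in capitals, and is taken from RefSeq.
Efna1 (chr3:89281111-89281136, minus strand): tggcccgatgTAATTAcagggtctgc
Epha5 (chr5:84417597-84417622, minus strand): ttctttacccTAATTAtcccgggagg
Robo3 (chr9:37433261-37433286, minus strand): attaagccctTAATTAcggcgtgatc
Sema6d (chr2:124653460-124653487, plus strand): ctaggtctctTGATAAATagggaactat
Efna1 and Epha5 had no peak in either list, and Robo3 had only the replicate 2 peak 20.7 kb from the gene. The Sema6d window belongs to an internal start of that gene, and the nearest shared peak lay 351 kb from that start. None of the 4 stretches lay under a peak. The sequences under the peaks were not analysed here.

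In fold enrichment the 24 shared peaks sat in the middle of all shared peaks. Their median was 4.41 in replicate 1 (range 2.76 to 13.7) and 3.86 in replicate 2 (2.36 to 8.41), where all 2175 shared peaks had medians of 4.23 and 3.63. In 6 of the 24 (25%) the fold was at least 5 in both lists, as in 18.3% of all shared peaks. These 6 were at Robo2, Unc5a, Nrp2, Slit3, Unc5c and Sema5a. Peaks of at most 1000 bp in both lists made up 22 of the 24 (91.7%) and 75.5% of all. Summits of the 2 replicates were within 100 bp of each other at 20 of the 24 (83.3%), beside 73.0% of all. Of the replicate 1 peaks at these genes, 24 of 38 had a partner (63.2%, 47.3 to 76.6, Wilson), beside 51.2% of the whole list. In replicate 2 the figure was 24 of 30 (80.0%, 62.7 to 90.5), beside 77.6%. The median fold of the 14 replicate 1 peaks without a partner was 3.39, and that of the 6 such replicate 2 peaks was 2.92.

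**Figure D3:**
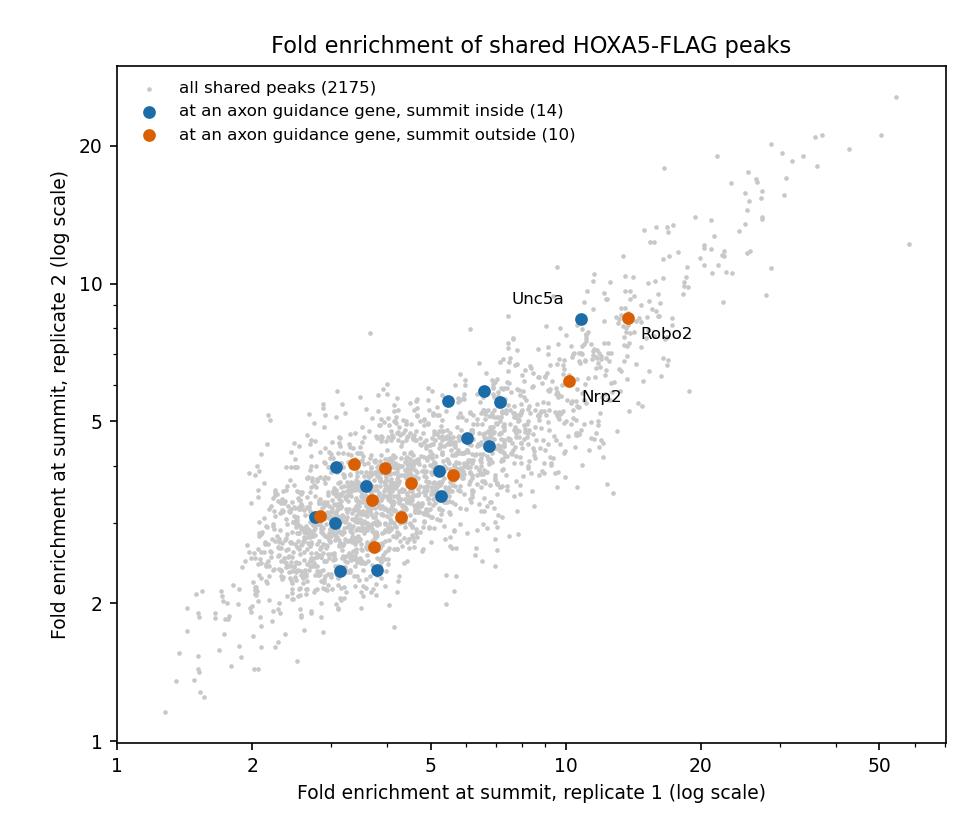
Fold enrichment at the summit in replicate 1 (x axis) and replicate 2 (y axis), both on log scales, for all 2175 shared peaks (grey) and the 24 at axon guidance genes, blue where the summit is inside the gene and orange where it is outside. The peaks of Robo2, Unc5a and Nrp2 stand above 10-fold in replicate 1, and the other 21 lie between 2.76 and 7.14.

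Shared peaks were found at the longer genes of the set. The 17 genes with a shared peak had a median span of 326 kb (60.9 to 1555), and the 41 without had 39.8 kb (9.22 to 573). The 58 had a median span of 119 kb, where all protein-coding genes had 17.2 kb, so a share of genes set against all genes also sets long genes against short. Within classes of span the counts were as follows. Of 24 genes under 50 kb none had a shared peak (Wilson upper bound 13.8%), where 3.09% of all protein-coding genes of that span did. Of 17 genes from 50 to 200 kb, 7 did (41.2%, 21.6 to 64.0), where 11.0% of all did. Of 17 genes over 200 kb, 10 did (58.8%, 36.0 to 78.4), where 35.1% of all did. The 7 over 200 kb without one were Sema3d, Sema3e and Efna5, which had a peak in 1 list, and Plxna4, Unc5d, Epha5 and Ephb1, which had none. Classes this wide still mix lengths, and the part of span in what remains was not tested. Counted by bases, the 58 genes took 0.919% of the bases that could be given to a protein-coding gene and 1.52% of the shared peaks given to one (0.979 to 2.26, exact binomial interval). That is 1.37 shared peaks per Mb, beside 0.827 over all protein-coding genes. Neighbouring genes and several peaks at 1 gene are not independent, so the interval is too narrow.

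**Figure D4:**
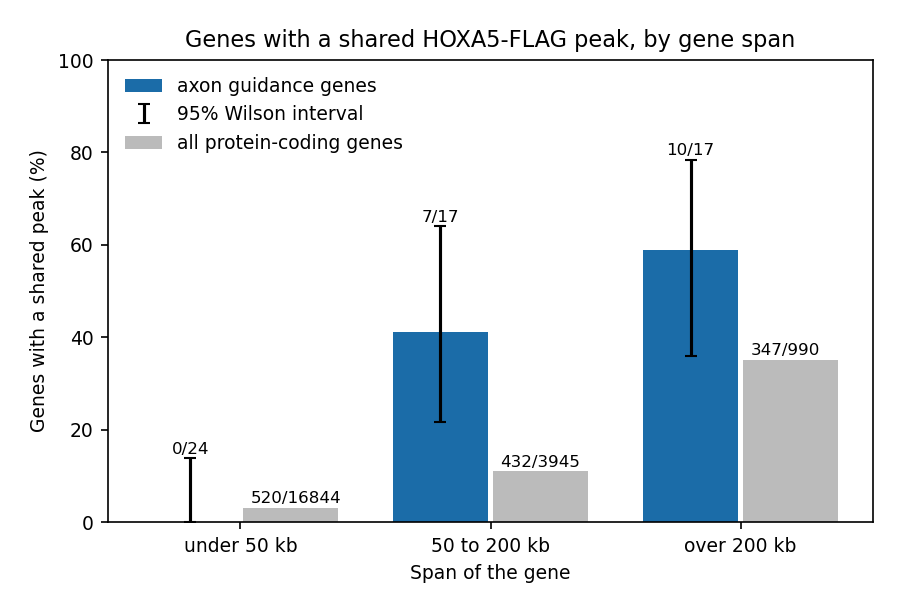
Share of genes with a shared HOXA5-FLAG peak (y axis, %) by span of the gene (x axis), for the 58 axon guidance genes (blue, with 95% Wilson intervals) and all protein-coding genes (grey), with the counts above. No gene of the set under 50 kb had a shared peak, 7 of 17 from 50 to 200 kb did, and 10 of 17 over 200 kb did.

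Other genes of the pathway, taken from a list of 59 that holds further ephrin, Eph and netrin genes, other secreted and surface guidance proteins and proteins that carry the signal inside the cell, were counted in the same way. A peak was present at 13 in replicate 1 (22.0%, against 10.4% of all protein-coding genes) and at 8 in replicate 2 (13.6%, against 7.57%). A shared peak was present at 6 (10.2%, 4.74 to 20.5, Wilson, against 5.96%). Under 50 kb these were 2 of 26 genes (7.69%, against 3.09% of all protein-coding genes of that span). From 50 to 200 kb they were 2 of 19 (10.5%, against 11.0%), and over 200 kb 2 of 14 (14.3%, against 35.1%). Ablim1, which encodes an actin-binding LIM protein, held the highest (chr19:57241816-57242394; 21.8-fold in replicate 1 and 19.0-fold in replicate 2). Epha8, an Eph receptor gene outside the set of 58, had one 4.70 kb outside the gene (chr4:136924542-136924914; 13.6- and 10.4-fold). Pak1, a kinase activated by RAC and CDC42, had one at 2.57 kb (12.1- and 4.48-fold). Ablim3 had 2, the better ranked inside it at 10.6- and 5.04-fold. Rgma, which encodes a ligand of neogenin, held one at 10.7- and 4.69-fold, and Srgap3, a Slit-Robo GTPase-activating protein gene, one at 3.13- and 3.04-fold. The 2 lists were not tested against each other.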

How the data were processed

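Lungs were fixed in 1% formaldehyde and chromatin was sheared to 200 to 500 bp, per the labels' protocols. The authors deposited 1 peak list per immunoprecipitate. Per the submitters' processing notes the tools include Bowtie2 2.5.2 and MACS3 3.0.1, with the mm10 build. For settings, filters and the peak caller's control, the steps were not given in the sources used here. The deposited fold enrichment is a ratio at the summit, and the deposited −log10 q lay above 2 in every row. The deposited score column was not used. Peak names in the replicate 2 list disagree with the label on the replicate number, and the label was followed.

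Gene spans came from a RefSeq table of GRCm38.p6. Of 49943 genes on chromosomes, 340 starting below 3 Mb (Y excepted) were left out as probable scaffold positions. All 58 genes matched by symbol. Chains of overlapping peaks counted as 1 shared peak, placed at the replicate 1 summit with the highest −log10 q. Scripts (Python 3.11.15, pandas 2.3.3, scipy 1.17.1) were tested on simulated data with known answers. Every gene of the set with a peak was named, and up to 8 of the other pathway genes with a shared peak, by mean rank of −log10 q. Members, lists and rules were chosen with earlier results of these data known. Alternatives changed the −log10 q limit, peak length, distance, competing genes, overlap and replicate.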

Additional observations from a re-analysis of the deposited data

How the results depend on the processing

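No paired analysis was possible because the results come from no test. Under 9 alternative settings, 34 of 42 summary values stayed within 1.5 times the reported value, and distance moved 7 of the other 8. The 42 include the median folds, none of which moved. Where 1 list was used alone, all its peaks were set against the shared peaks, which is an unlike measure. With the summit required inside the gene, 12 genes of the set had a peak in replicate 1, where 5.79% of all protein-coding genes did. In replicate 2 the number was 12 (against 4.18% of all), and 10 had a shared peak (against 3.25%), with 14 shared peaks. Within 10 kb, 12 genes of the set had a replicate 1 peak (against 7.11% of all protein-coding genes) and 11 a shared peak (against 3.95%), with 15 shared peaks. From 1 list alone, 19 genes had a peak without replicate 1 and 20 without replicate 2, and peaks numbered 30 and 38. Leaving out the replicate check thus adds 14 replicate 1 peaks. With noncoding genes competing, 13 genes of the set had a shared peak (against 4.50% of all protein-coding genes), and Sema3c, Sema6a, Plxnc1 and Neo1 had none. Single genes lost theirs under other settings: Plxnc1 with −log10 q limited to 5 or more, Epha3 with peaks of at most 1000 bp, and Dcc with summits within 100 bp. Robo1, Robo2, Sema3a, Sema5a, Sema6d, Slit3, Unc5a and Unc5c had a shared peak under each of these settings. With the summit inside the gene or within 10 kb, however, Robo2 kept 3 of its 4 shared peaks. The 1 lost was its highest, 95.2 kb outside the gene, and Sema5a kept 1 of 2. Read depth, which sets how many peaks pass a threshold, is unknown.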
